A study of Homo sapiens with 62 samples.

Results

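The Hippo pathway restrains the coactivators YAP1 and WWTR1 (TAZ) through a kinase cascade that ends in LATS1 and LATS2, which phosphorylate them and keep them out of the nucleus. Unphosphorylated YAP1 and WWTR1 enter the nucleus, where the TEAD proteins bring them to DNA, and genes such as CCN1, CCN2, ANKRD1 and AMOTL2 are transcribed. Several of the induced genes, among them AMOTL2 and LATS2, feed back on the pathway as inhibitors, and in epithelial tumours the pathway is best known for coupling cell contact and tension to growth.

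Values are given for 10 genes of this pathway, chosen by gene name out of 29794 in each count table: the coactivators YAP1 and WWTR1, the DNA-binding partners TEAD1, TEAD3 and TEAD4, the targets CCN1, CCN2 and ANKRD1, and the targets and feedback inhibitors AMOTL2 and LATS2. All 10 passed the filter on low counts in each of the 7 treatment comparisons. The libraries come from SLAM-seq, in which 4-thiouridine given for 2 h is built into new RNA and read as T-to-C changes, so that T>C reads count newly made RNA and all reads count the total. The study asked what the transcription factor KLF5 and the ATPases RUVBL1 and RUVBL2 do for transcription in 2 pancreatic cancer lines, AsPC-1 (classical) and T3M-4 (basal-like).

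Every one of the 62 libraries carried the genotype FKBP12-F36V-FLAG-KLF5_sgEndogenousKLF5, in which a lentiviral KLF5 fused to a degron replaced the knocked-out endogenous gene, so the controls are not unmodified cells. Cells had 4 h of dTAG, which degrades the fusion protein (10 libraries in AsPC-1, 4 in T3M-4), its inactive analogue NEG (10 and 4), CB-6644, an inhibitor of the RUVBL1/2 ATPases (5 and 4), NVP-2, an inhibitor of the elongation kinase CDK9 (4 and 4), or DMSO (5 and 4). AsPC-1 also had 12 h of CB-6644 or DMSO (4 libraries each). The number before the point in a replicate label is called the experiment here. Each library also has a batch number, which is kept apart from the experiment. In T3M-4 batch and experiment coincide. In AsPC-1 the NVP-2 libraries share experiment numbers with the DMSO libraries at 4 h but not their batch. Equal experiment numbers in those groups therefore need not mean the same experiment. The labels do not say which libraries came from separate cultures, so the p-values measure only the spread between these libraries.

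AsPC-1 libraries held 2240998 to 18311982 T>C reads and T3M-4 libraries 3714015 to 27982537. Epithelial markers (5 of 5) exceeded 1 CPM (reads scaled to a common library size) in every library of both lines, all 4 basal markers did so in T3M-4 and all 4 classical markers in AsPC-1. Of the basal markers, AsPC-1 had S100A2 at 10.0 to 57.7 CPM and KRT17 up to 2.29 CPM, with TP63 and KRT5 below 1 CPM throughout; of the classical markers, T3M-4 had MUC1 at 12.6 to 80.6 CPM and GATA6 up to 2.64 CPM, with HNF4A and MYO1A below 1 CPM. Of 6 fibroblast and leukocyte markers, 2 exceeded 1 CPM in every AsPC-1 library (LUM at 2.23 to 19.1 CPM and CD68 at 3.67 to 25.1 CPM) and 1 in every T3M-4 library (COL1A1 at 3.93 to 8.60 CPM), while COL3A1, DCN and PTPRC were below 1 CPM in every library of both lines. The AsPC-1 libraries fell into 3 sets of 17, 17 and 8, called A, B and C, by the 500 most variable genes with all listed pathway genes left out. Sets cross the treatments (dTAG and NEG each had 4, 4 and 2 libraries). Set C is replicates 2.1 and 2.2 of dTAG, NEG, CB-6644 and DMSO at 4 h, and NVP-2 and the 12 h groups had 0 libraries in it. Sets A and B largely follow the replicate number, lower numbers in A and higher in B, with CB-6644 replicate 1.2 at 4 h an exception in set B. The labels do not say what separates the sets. The kinase gene DCLK1 separated set B, at 20.1 to 46.8 CPM of all reads against 0.314 to 1.58 in the other sets. KLF5 RNA was itself higher with dTAG (log2 fold change 0.60, adjusted p = 0.00284 in AsPC-1 by edgeR), and since the degron acts on protein, RNA does not check the degradation.

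The 30-base stretches below hold the matches to the TEAD core motif GGAATG (or CATTCC on the other strand) around the members' start sites, and are shown because the members were chosen as genes of this pathway. They come from RefSeq promoters on GRCh38.p14, which run from 250 bases before to 50 bases after a start, and 7 of the 10 members matched an entry (9 entries); CCN1, TEAD1 and TEAD4 did not. Capitals mark the motif, and each stretch is written 5′ to 3′ on the gene's strand.
CCN2, chr6:131951524-131951553, minus strand: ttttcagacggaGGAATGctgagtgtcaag
CCN2, chr6:131951455-131951484, minus strand: ggtggggaGGAATGcgaGGAATGtccctgt
ANKRD1, chr10:90921290-90921319, minus strand: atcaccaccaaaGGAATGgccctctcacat
ANKRD1, chr10:90921198-90921227, minus strand: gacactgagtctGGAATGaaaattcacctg
AMOTL2, second entry, chr3:134374499-134374528, minus strand: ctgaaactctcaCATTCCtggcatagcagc
YAP1, chr11:102110273-102110302, plus strand: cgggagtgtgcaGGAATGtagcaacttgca
LATS2, chr13:21061560-21061589, minus strand: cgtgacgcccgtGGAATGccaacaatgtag
CCN2 had 3 matches in its window, and 3 or more occur in 0.128% of the 35116 promoters of that length. ANKRD1 had 2 matches, as 1.37% of promoters have 2 or more, and the single matches of AMOTL2, YAP1 and LATS2 compare with 14% of promoters that hold at least 1. WWTR1 and TEAD3 had none in these windows. Reads were counted over 3′ UTR exons, and no member's 3′ UTR overlaps that of another gene on either strand in the GRCh38 annotation.

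CCN1 and CCN2, which encode secreted matricellular proteins, ANKRD1, which encodes an ankyrin-repeat protein, and AMOTL2 differed widely between the AsPC-1 library sets. ANKRD1 T>C reads were 23.0 to 87.3 CPM in the 6 NEG and DMSO libraries of set A and 43.1 to 71.8 CPM in the 4 of set C, against 0 to 0.199 CPM in the 5 of set B. CCN2 lay at 53.5 to 83.1 CPM in set A and 40.9 to 144 CPM in set C, against 3.49 to 20.7 CPM in set B. For both genes no control library of set B reached the lowest of the other sets. AMOTL2, an angiomotin-family scaffold that binds YAP1, had 264 to 553 CPM in set A, 354 to 580 CPM in set C and 127 to 175 CPM in set B, again without overlap of set B. CCN1 overlapped between sets A and B, at 263 to 511 CPM in set A, 152 to 319 CPM in set B and 442 to 1366 CPM in set C. YAP1 did not follow the sets: its ranges were 100.4 to 128, 109 to 134 and 124 to 137 CPM in sets A, B and C. WWTR1, TEAD3 and TEAD4 overlapped across sets A and B as well, whereas TEAD1 was 129.7 to 186 CPM in set A and 80.2 to 127 CPM in set B. These are descriptions with no test, as the sets were found in the same libraries, and in bulk libraries fewer cells that express a gene and less RNA per cell cannot be told apart.

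**Figure D1:**
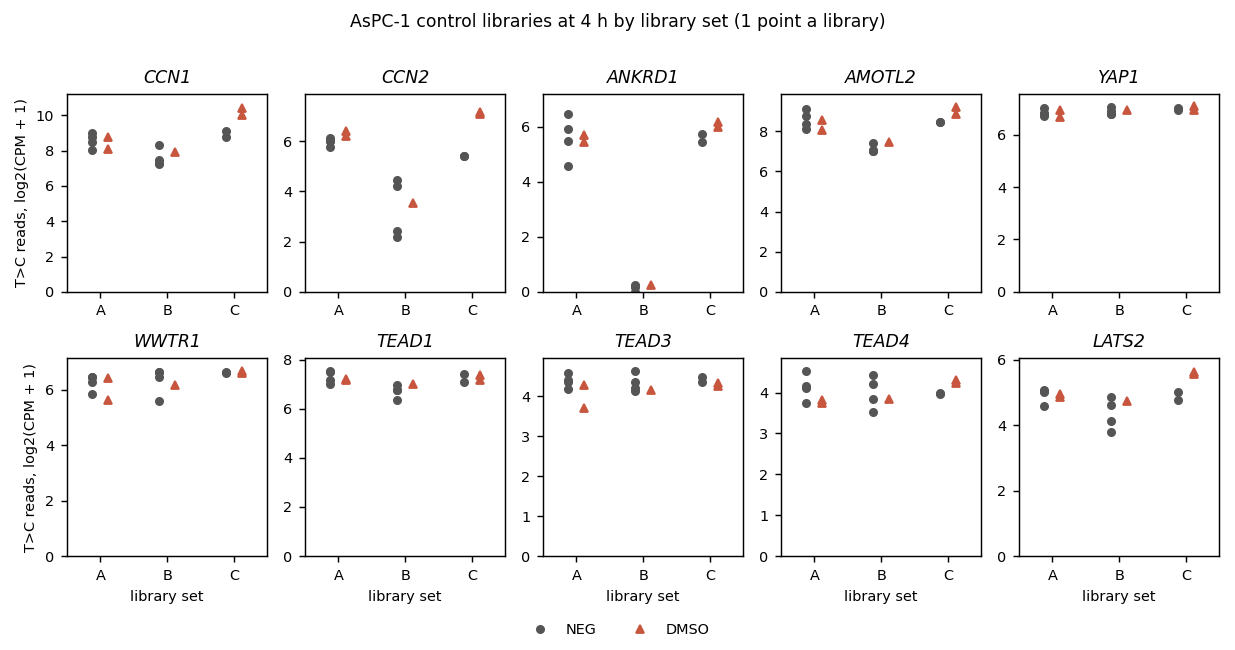
T>C reads of the 10 genes in the AsPC-1 NEG and DMSO libraries at 4 h, as log2(CPM + 1) on the vertical axis, by library set on the horizontal axis; each point is 1 library. ANKRD1 lies near 0 in the 5 libraries of set B, while YAP1 covers nearly the same range in every set.

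The labelled share, the percentage of a gene's reads that carry T>C, separated the targets from the other members in control cells. In AsPC-1 DMSO libraries at 4 h (mean ± SD, n = 5) it was 59.7% ± 2.12 for CCN1, 51.6% ± 4.17 for AMOTL2, 50.4% ± 5.46 for LATS2, 47.0% ± 3.57 for CCN2 and 40.2% ± 5.60 for ANKRD1. WWTR1 (25.1% ± 2.56), YAP1 (22.8% ± 3.88), TEAD1 (21.0% ± 3.35), TEAD3 (16.8% ± 3.18) and TEAD4 (11.5% ± 1.26) followed. In that order CCN1 did not overlap AMOTL2 but overlapped LATS2, and AMOTL2, LATS2 and CCN2 overlapped each other, while the gap between ANKRD1 and WWTR1 exceeded the spread of both. The ANKRD1 value includes 1 set B library, whose share rests on few ANKRD1 reads. In T3M-4 (n = 4) the same 5 targets held 51.4% to 73.0% and the coactivators and TEADs 14.96% to 34.4%. The library-wide share was 10.1% ± 0.622 in AsPC-1 DMSO and 12.4% ± 1.56 in T3M-4 DMSO. The share also depends on how many T a read holds, and the members' 3′ UTRs are 17.9% (TEAD4) to 36.3% (YAP1) T, so the order cannot be read as one of RNA lifetimes.

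Loss of KLF5 was compared as dTAG against NEG. In AsPC-1, newly made CCN1, CCN2, WWTR1 and LATS2 RNA was higher in the dTAG libraries, and the call depended on whether libraries with the same number were paired. CCN2 ranged from 3.49 (lowest) over 41.0 (median) to 68.2 CPM of T>C reads in the 10 NEG libraries and from 8.36 over 79.0 to 281 CPM with dTAG. The groups overlapped, and in all 10 same-numbered pairs the dTAG library was the higher. CCN1 was 152, 337 and 557 CPM (lowest, median and highest) with NEG and 267, 682 and 1523 CPM with dTAG, higher in 9 of 10 pairs. LATS2, the kinase, was 13.0, 27.3 and 32.8 CPM with NEG and 19.4, 36.0 and 49.2 CPM with dTAG, higher in 10 of 10. WWTR1 was 46.7, 86.8 and 99.2 CPM with NEG and 81.0, 115 and 161 CPM with dTAG, higher in 8 of 10. Pairs were not counted over all genes. Mean CPM with NEG, dTAG and DMSO at 4 h was 338, 702 and 667 for CCN1 and 37.6, 106.5 and 88.8 for CCN2. It was 25.9, 35.2 and 35.7 for LATS2 and 83.1, 115.8 and 79.95 for WWTR1. DMSO was thus nearer to dTAG than to NEG, except for WWTR1. NEG and DMSO differ in their mix of library sets and were not tested against each other.

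Without pairing, edgeR's quasi-likelihood test called none of the 10 genes in AsPC-1 (2.4% of 11696 genes were called at an adjusted p under 0.05). CCN1 then had a log2 fold change of 1.08 ± 0.32 (SE, adjusted p = 0.0863), CCN2 of 1.52 ± 0.59 (0.251), WWTR1 of 0.50 ± 0.15 (0.0894) and LATS2 of 0.47 ± 0.18 (0.253). Same-numbered libraries deviated together in all 10 pairs (r 0.264 to 0.544), but only 5 of the 10 dTAG libraries correlated best with the NEG library of their own number. With the replicate number as a block, 4 of 10 members were called, all higher, where 7.41% of genes were called and 2.27% called higher. CCN2 rose by 1.3 ± 0.14 (adjusted p = 3.77e-05 by edgeR), CCN1 by 0.97 ± 0.20 (0.00721), LATS2 by 0.47 ± 0.09 (0.00282) and WWTR1 by 0.51 ± 0.11 (0.0082). A block of library set called 2 (CCN1 and CCN2; 5.45% of genes, 1.58% higher) and a block of set and experiment together the 4 named above (7.79%, 2.61% higher). DESeq2 without pairing called CCN1 and WWTR1. The 12 alternatives other than left-out experiments, DESeq2 included, called 0 to 941 genes. A share for DESeq2 alone is not given. Of the fibroblast and leukocyte markers, LUM was lower with the replicate block (−0.87 ± 0.23, adjusted p = 0.0341 by edgeR), and its part in these values was not tested.

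The other 6 genes were not called in AsPC-1. YAP1 had 0.28 ± 0.10 (adjusted p = 0.195 by edgeR; 0.135 paired), and ANKRD1, AMOTL2 and the 3 TEADs lay between −0.21 and 0.15, paired or not. The median over the 10 genes was 0.21 against 0.03 over all genes. Scaling by all reads in place of T>C reads moved the median of all genes to −0.22, and CCN1 (0.81) and CCN2 (1.11) stayed above it.

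**Figure D2:**
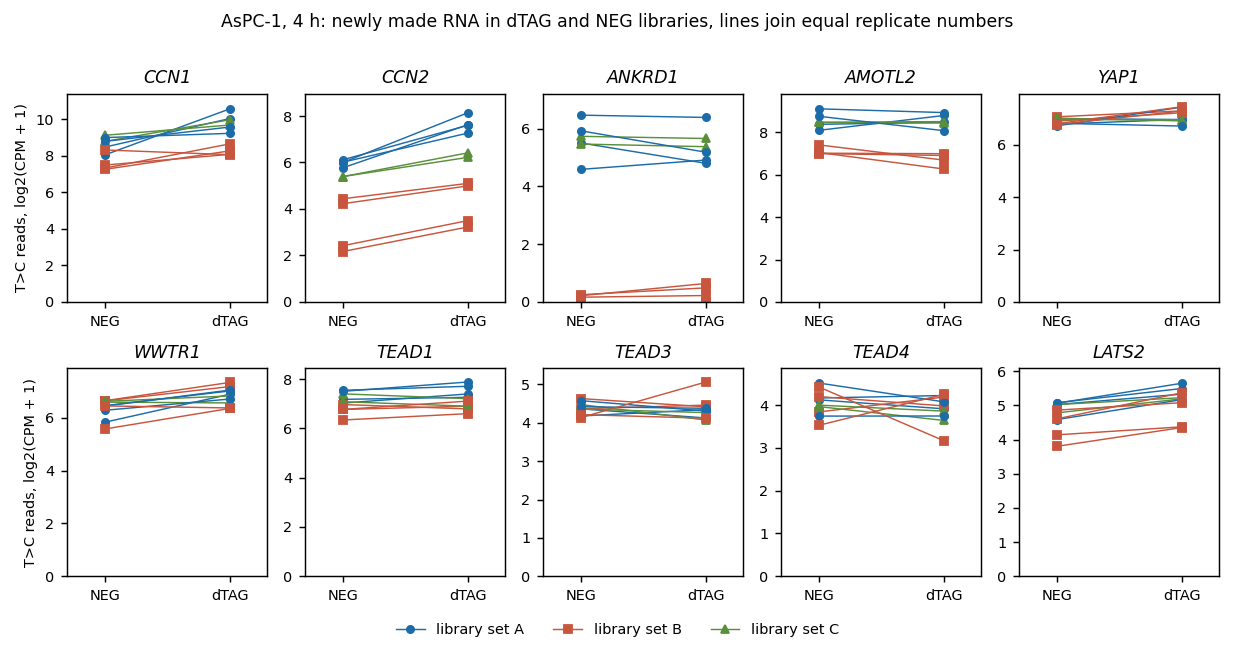
T>C reads of the 10 genes in AsPC-1 as log2(CPM + 1), NEG on the left and dTAG on the right of each panel; a line joins the 2 libraries with the same replicate number, and colour and marker give the library set. All 10 lines rise for CCN2 and LATS2, and the set B lines of ANKRD1 lie near 0 in both groups.

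All reads gave the same 4 genes once libraries were paired. Without pairing none of the 10 was called (0.797% of genes). With the replicate block CCN2 (1.2 ± 0.13, adjusted p = 0.000263 by edgeR), CCN1 (0.94 ± 0.20, 0.0179), LATS2 (0.38 ± 0.07, 0.0101) and WWTR1 (0.44 ± 0.11, 0.0366) were called higher (3.89% of genes, 1.31% higher). One dTAG library, 3.1, has no usable column of all reads and is absent from this fit and from the labelled share.

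The labelled share went the other way, with most other genes. CCN1 held 46.9% to 61.7% in the 10 NEG libraries and 39.5% to 53.7% in the 9 dTAG libraries, lower in 9 of 9 pairs. On the log2 odds scale it fell by 0.39 (SE 0.12, adjusted p = 0.0196 by limma), and CCN1, AMOTL2, YAP1, TEAD1 and TEAD3 were the 5 members called lower, where 38.8% of genes were called and 38.8% called lower. With the replicate block CCN2 joined them (6 members; 39.9% of genes, 39.8% lower). With a block of library set 4 were called, CCN1, CCN2, AMOTL2 and TEAD1 (40.3% of genes, 40.2% lower), while YAP1 (adjusted p = 0.0556 by limma) and TEAD3 (0.0551) were not. The members' median was −0.29 and the median over all genes −0.33. The library-wide share was 8.001% ± 0.337 with dTAG and 9.30% ± 0.689 with NEG, and its part in these values was not tested. Without experiment 1 or without experiment 2, none of the 10 was called.

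In T3M-4 a coactivator and a feedback inhibitor stood out, in opposite directions. WWTR1 T>C reads were 67.8, 95.7, 68.7 and 83.3 CPM with NEG and 124, 136, 179 and 180.3 CPM with dTAG, so the groups did not overlap. AMOTL2 was 411 and 572 CPM with NEG in experiment 1 and 1612 and 1632 CPM in experiment 2, against 238 and 330.4, then 745 and 866 CPM with dTAG. Every dTAG library of AMOTL2 lay below both NEG libraries of its own experiment, although the experiments differed more than the treatments. CCN1, CCN2 and ANKRD1 were each higher, and TEAD3 and TEAD4 each lower, in 4 of 4 pairs without being called. Pairs and overlap were not counted over all genes, so these counts are descriptions.

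Without pairing none of the 10 genes was called in T3M-4 (0.834% of genes); WWTR1 had a log2 fold change of 0.97 ± 0.20 (adjusted p = 0.0614 by edgeR) and AMOTL2 of −0.96 ± 0.52 (0.84). Same-numbered libraries deviated together here too (r 0.167 to 0.453), and 3 of the 4 dTAG libraries correlated best with the NEG library of their own number. With the replicate block WWTR1 rose by 0.96 (adjusted p = 0.0233) and AMOTL2 fell by 0.91 ± 0.11 (0.00603), the 2 members called among 2.22% of genes (0.313% higher, 1.91% lower). DESeq2 without pairing called WWTR1 (0.000857). The libraries of batch 2 alone called both, at 1.25 ± 0.18 (WWTR1, 0.0387) and −1.01 ± 0.13 (AMOTL2, 0.0283), and those of batch 1 alone neither, at 0.68 ± 0.25 and −0.78 ± 0.27. The 7 alternatives other than left-out libraries, these included, called 38 to 348 genes. Shares for DESeq2 and for each batch are not given.

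In all reads of T3M-4 none of the 10 was called without pairing (0.0191% of genes), and with the block AMOTL2 alone, lower by 0.86 ± 0.10 (adjusted p = 0.0239 by edgeR; 0.299% of genes, 0.242% lower). No labelled share was called, with or without the block (0.25% and 0.184% of genes), and for WWTR1 it was 16.9% to 27.3% with NEG and 28.9% to 35.1% with dTAG.

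**Figure D3:**
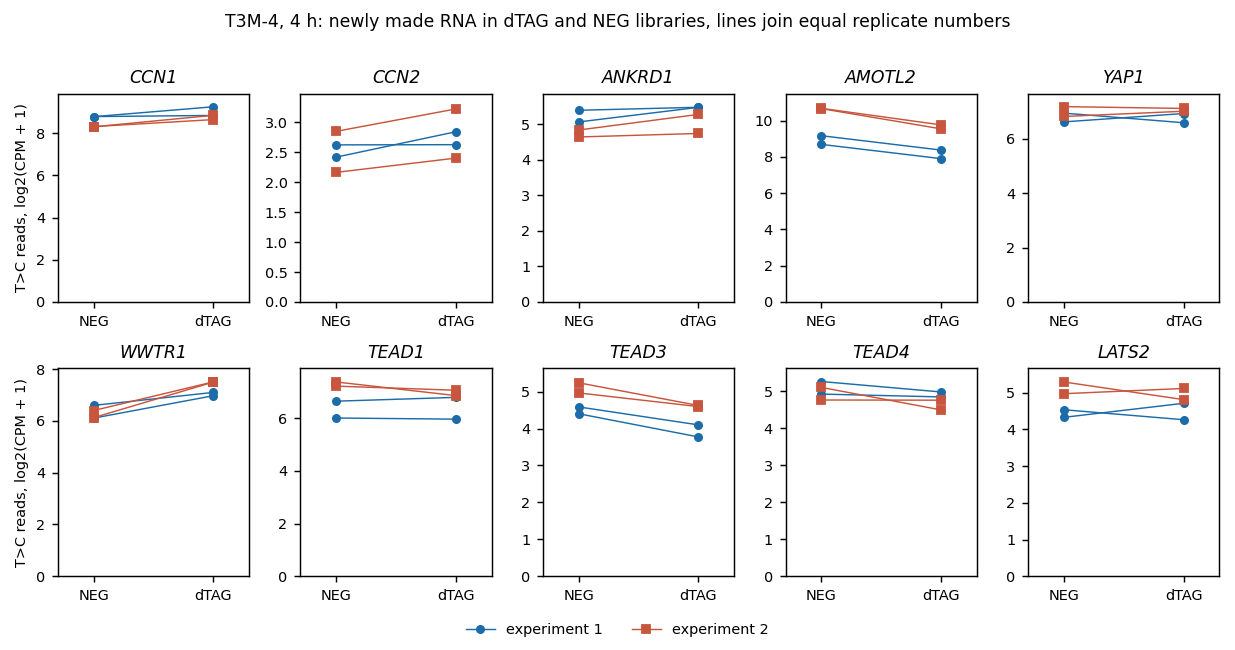
T>C reads of the 10 genes in T3M-4 as log2(CPM + 1), NEG on the left and dTAG on the right; a line joins the 2 libraries with the same replicate number, and colour and marker give the experiment. WWTR1 rises and AMOTL2 falls in all 4 pairs, with AMOTL2 of experiment 2 above experiment 1.

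The effect of dTAG was tested for a difference between the lines as an interaction, and none of the 10 genes was called (0.0426% of genes without a block). The alternatives with a block or DESeq2 called 38 to 81 genes and no member. CCN2 differed by −0.97 ± 0.25 (T3M-4 minus AsPC-1, adjusted p = 0.112 by edgeR with the replicate block), AMOTL2 by −0.74 ± 0.22 (0.166) and WWTR1 by 0.48 ± 0.21 (0.385), so a call in 1 line and not the other is not shown to be a difference.

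Further genes of the pathway were counted with the replicate block, beside the same share over all genes. Of 17 further YAP-TEAD targets 16 were tested in AsPC-1, where 5 were higher (2.27% of all genes) and 3 lower (5.14%). The higher ones were TGFB2, which encodes a TGF-beta ligand (0.64 ± 0.10, adjusted p = 0.00104 by edgeR), FJX1 (0.58), CRIM1 (0.50), PTPN14 (0.48) and ASAP1 (0.32), and the lower ones F3, the tissue factor gene (−0.58 ± 0.10, 0.00258), MYOF (−0.35) and DOCK5 (−0.33). In T3M-4 all 17 were tested and 4 were lower (1.91% of all genes) and 0 higher: NUAK2, a kinase gene (−1.60 ± 0.18, 0.00401), F3 (−1.51 ± 0.14, 0.00232), IGFBP3 (−1.17) and GADD45A (−0.81). Of 22 Hippo kinases and upstream regulators 21 were tested in each line. NF2, the merlin gene, was higher (0.56 ± 0.12, 0.0116) and WWC1, the KIBRA gene, lower (−0.41 ± 0.08, 0.00401) in AsPC-1, and AJUBA, a LIM protein that restrains LATS, was lower in T3M-4 (−1.49 ± 0.14, 0.00232). Without pairing, PTPN14 and DOCK5 were called in AsPC-1 and F3, NUAK2 and AJUBA in T3M-4.

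CB-6644 moved none of the 10 genes past the threshold in either line. No gene in the tables was called at 4 h in AsPC-1, at 4 h in T3M-4 or at 12 h in AsPC-1 (0%, 0% and 0% of genes in T>C reads), while 482, 569 and 473 genes had an unadjusted p under 0.05 by edgeR; over every other fit, DESeq2 included, at most 1, 7 and 26 genes were called and no member. All reads called 0%, 0.0127% and 0% of genes and the labelled share 1.91%, 0% and 0.0158%, in each case without a member. At 4 h in AsPC-1 the share of all 10 members was lower, at a median of −0.45 in log2 odds against −0.27 over all genes. The library-wide share was 8.51% ± 0.254 with CB-6644 and 10.1% ± 0.622 with DMSO, and its part in these values was not tested. CCN1 T>C reads in AsPC-1 were 555, 182, 152, 559 and 466.5 CPM with CB-6644 at 4 h and 268, 438, 240.0, 1366 and 1025 CPM with DMSO. The high and low libraries follow the sets in part. In set B are 152 and 182 CPM with CB-6644 and 240.0 CPM with DMSO, and in set C 559 and 466.5 CPM with CB-6644 and 1366 and 1025 CPM with DMSO. Set A overlaps both, at 555 CPM with CB-6644, level with set C, and 268 and 438 CPM with DMSO, the lower close to set B. The log2 fold change of CCN1 was −0.80 ± 0.52, of CCN2 −1.04 ± 0.76 and of ANKRD1 −1.08 ± 1.15, and with a block of library set −0.45 ± 0.28, −0.68 ± 0.27 and −0.63 ± 0.21, none called (adjusted p 0.969 for each by edgeR).

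In T3M-4 ANKRD1 had the lowest value, at 16.3, 23.7, 38.9 and 21.1 CPM with CB-6644 and 46.5, 33.6, 32.2 and 41.6 CPM with DMSO (log2 fold change −0.61 ± 0.27, adjusted p = 0.994 by edgeR). 3 of the 4 CB-6644 libraries lay below all DMSO libraries and the fourth between them. At 12 h in AsPC-1 the 10 genes lay between −1.06 ± 1.81 (ANKRD1) and 0.24 ± 0.29 (CCN1). The line difference under CB-6644 called none of the 10 genes (0% of genes), and 0 genes of the pathway lists were called.

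Newly made CCN1, AMOTL2 and LATS2 RNA was lower with NVP-2 than with DMSO in both lines, relative to the other genes, as was CCN2 in AsPC-1 and ANKRD1 in T3M-4. CCN1 T>C reads were 268 to 1366 CPM in the 5 AsPC-1 DMSO libraries and 68.4, 102, 73.7 and 57.5 CPM with NVP-2. AMOTL2 was 175 to 580.4 CPM with DMSO and 73.1, 94.3, 37.7 and 37.8 CPM with NVP-2. CCN2 was 10.6 to 144 CPM with DMSO and 15.6, 10.9, 1.73 and 2.91 CPM with NVP-2. For CCN1 and AMOTL2 the groups did not overlap, and for CCN2 they did, through the set B library of DMSO. Overlap was not counted over all genes.

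In AsPC-1, 4 of 10 members were called lower in T>C reads (30.5% of genes called, 17.6% lower): CCN2 (−3.35 ± 0.76, adjusted p = 0.00675 by edgeR), CCN1 (−3.02 ± 0.53, 0.00156), AMOTL2 (−2.48 ± 0.40, 0.00103) and LATS2 (−1.05 ± 0.35, 0.0386). ANKRD1, whose groups overlapped, had −1.84 ± 1.22 (0.278). With a block of library set 3 remained (23.8%, 14.5% lower), CCN1 at −1.86 ± 0.26, CCN2 at −2.32 ± 0.32 and AMOTL2 at −1.92 ± 0.23. All NVP-2 libraries of AsPC-1 are batch 2 and all DMSO libraries at 4 h batch 1, so drug and batch cannot be told apart in this comparison. Against the batch 2 NEG libraries with the block of set, CCN1 (−1.97), CCN2 (−2.41), AMOTL2 (−2.09) and ANKRD1 (−1.50 ± 0.48, 0.0325) were lower (34.6% of genes, 19.1% lower), and LATS2 was not called. This fit was chosen after seeing the data. Against the batch 2 DMSO libraries at 12 h, without a block, only 2 members were called (median −0.36, all genes −0.07). The median against batch 2 NEG without a block was −0.24 (all genes −0.04).

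In T3M-4, where both batches hold both groups, CCN1 T>C reads were 247, 288, 483 and 524 CPM with DMSO and 63.1, 48.2, 26.8 and 11.8 CPM with NVP-2. ANKRD1 was 46.5, 33.6, 32.2 and 41.6 CPM with DMSO and 15.2, 5.90, 4.26 and 0 CPM with NVP-2. The 4 members called lower (26.7% of genes, 14.2% lower) were CCN1 (−3.28 ± 0.52, adjusted p = 0.00158 by edgeR), AMOTL2 (−3.10 ± 0.56, 0.00298), ANKRD1 (−2.48 ± 0.77, 0.0357) and LATS2 (−1.38 ± 0.40, 0.0267), while CCN2 had −2.05 ± 0.78 (0.0757). CCN1 and AMOTL2 kept their calls in both lines when any 1 library was left out, and LATS2 lost its call in 6 of 9 such fits in AsPC-1 and 3 of 8 in T3M-4, ANKRD1 in 6 of 8 in T3M-4.

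YAP1, WWTR1 and the TEADs were not called in T>C reads of either line, at −0.30 to 0.75 on the log2 scale relative to the other genes. TEAD1 went opposite ways in the T3M-4 batches: 75.7 and 74.0 CPM with DMSO against 156 and 168 CPM with NVP-2 in batch 1 (1.23 ± 0.25, adjusted p = 0.0192 by edgeR), and 155 and 146 CPM against 62.0 and 58.7 CPM in batch 2 (−1.26 ± 0.23, 0.0295). YAP1 was 98.6 to 111 CPM with DMSO and 132 to 169 CPM with NVP-2 in T3M-4, without overlap (0.55 ± 0.23, 0.102), and DESeq2 called it higher (0.0106). The 7 alternatives other than left-out libraries called 2369 to 10680 genes in T3M-4. WWTR1 was called higher in batch 1 alone (1.22 ± 0.31, 0.0339) and not in batch 2 (0.13 ± 0.36). Such values are relative to a library in which new RNA was low throughout: the library-wide labelled share was 1.57% ± 0.239 in AsPC-1 and 2.24% ± 0.417 in T3M-4 with NVP-2. Scaled by all reads, all 10 genes were lower in both lines, as were 94.1% of genes in AsPC-1 (94.2% called) and 87.2% in T3M-4 (87.2% called), at medians over all genes of −3.26 and −3.09.

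Total RNA set the targets apart from the coactivators and TEADs under NVP-2, except that ANKRD1 was not called in AsPC-1. In all reads CCN1 (−4.18 ± 0.52, adjusted p = 0.000805 by edgeR), AMOTL2 (−2.95 ± 0.38, 0.0009), CCN2 (−2.68 ± 0.77, 0.0461) and LATS2 (−1.19 ± 0.28, 0.0205) were lower in AsPC-1 (11.8% of genes, 8.39% lower). Groups overlapped for CCN2 and for ANKRD1 (3.68 ± 4.30 CPM with NVP-2, 11.2 ± 6.89 CPM with DMSO). Leaving out 1 library gave 2 to 4 members there. Drug and batch coincide in AsPC-1, and DMSO holds 2 libraries of set C where NVP-2 holds 0. In T3M-4 CCN1 (−2.89 ± 0.48), AMOTL2 (−2.19 ± 0.53), CCN2 (−2.08 ± 0.49), ANKRD1 (−2.08 ± 0.49) and LATS2 (−1.21 ± 0.20) were (5.16% of genes, 4.91% lower), of which CCN2, ANKRD1 and AMOTL2 each lost the call in 6 or 7 of the 8 fits without 1 library. YAP1, WWTR1 and the TEADs lay between −0.30 and 0.34, none called. The 5 members with the highest labelled shares in DMSO are thus the 5 with the lowest all-read log2 fold changes under NVP-2 in both lines, which is a description over 10 genes with DMSO libraries in common.

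**Figure D4:**
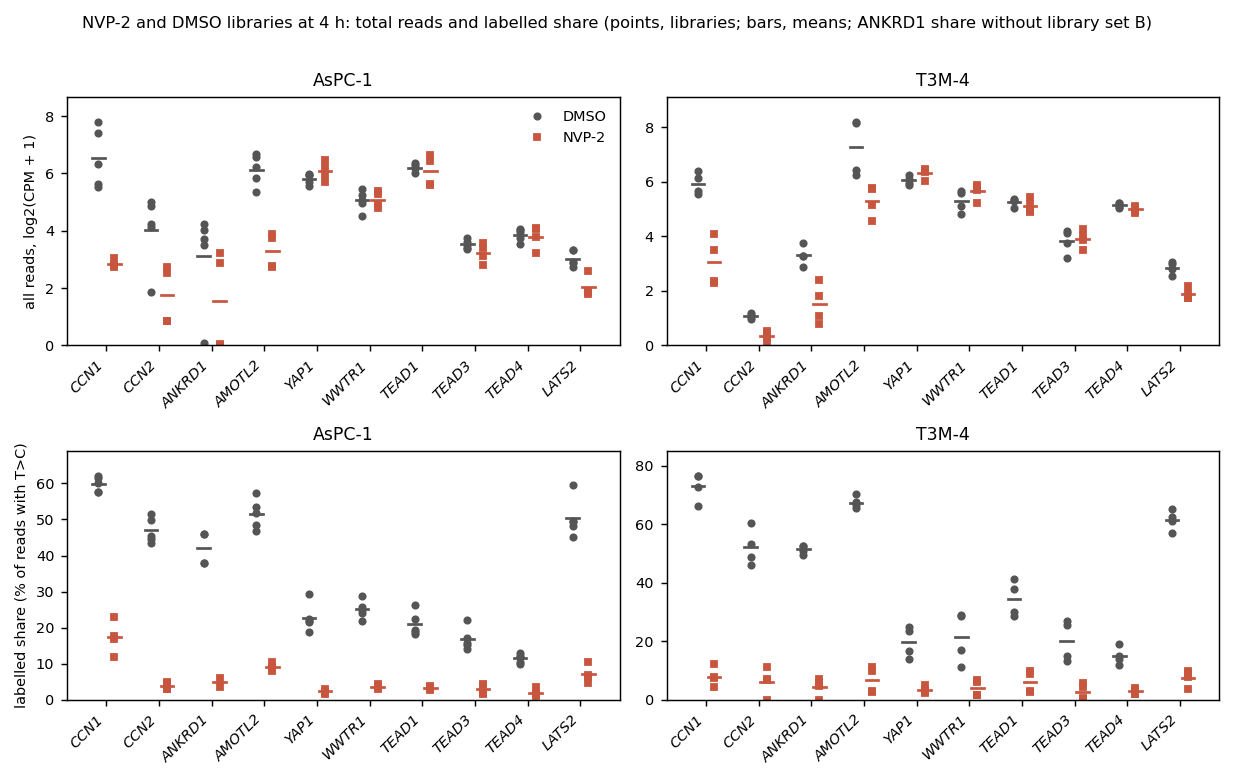
All reads as log2(CPM + 1) (top) and labelled share in percent (bottom) of the 10 genes in DMSO and NVP-2 libraries at 4 h, AsPC-1 on the left and T3M-4 on the right; points are libraries and bars their means, and the ANKRD1 share leaves out set B libraries of AsPC-1, which hold few ANKRD1 reads. All reads of CCN1, AMOTL2 and LATS2 are lower with NVP-2, the means of YAP1 and WWTR1 are not, and the share is lower for all 10.

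The labelled share of all 10 genes was lower with NVP-2 in both lines, as for nearly all genes (93.6% called and 93.6% lower in AsPC-1, 90.5% and 90.5% in T3M-4). In AsPC-1 CCN1 went from 57.5% to 62.1% with DMSO to 11.7% to 22.9% with NVP-2, and YAP1 from 18.8% to 29.2% to 1.62% to 2.999%. No member's share overlapped between DMSO and NVP-2 in either line, though overlap was not counted over all genes. The ANKRD1 share in AsPC-1 includes set B libraries, which hold few ANKRD1 reads. In T3M-4 the members' log2 odds lay between −5.14 ± 0.50 (AMOTL2) and −2.66 ± 0.38 (TEAD4). The line difference under NVP-2 called none of the 10 genes (0.851% of genes).

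In T>C reads of NVP-2 libraries, other genes of the pathway were called in both directions. Of the further targets 14 were tested in AsPC-1, 4 lower and 2 higher, and 17 in T3M-4, 5 lower and 2 higher, where 17.6% and 14.2% of all genes were lower and 12.9% and 12.4% higher. GADD45A (−3.03 ± 0.40 in AsPC-1 and −4.02 ± 0.50 in T3M-4), FJX1 and F3 were lower in both lines and DOCK5 (1.14 ± 0.19 and 0.93 ± 0.30) was higher in both. Of 21 upstream regulators tested 4 were lower and 3 higher in AsPC-1, and 1 lower and 3 higher in T3M-4. AJUBA was lower in both lines, and the kinase gene MAP4K4 and STRN, which encodes striatin, were higher in both. With a block of library set, AJUBA alone of the regulators was lower in AsPC-1 and 2 were higher.

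**Figure D5:**
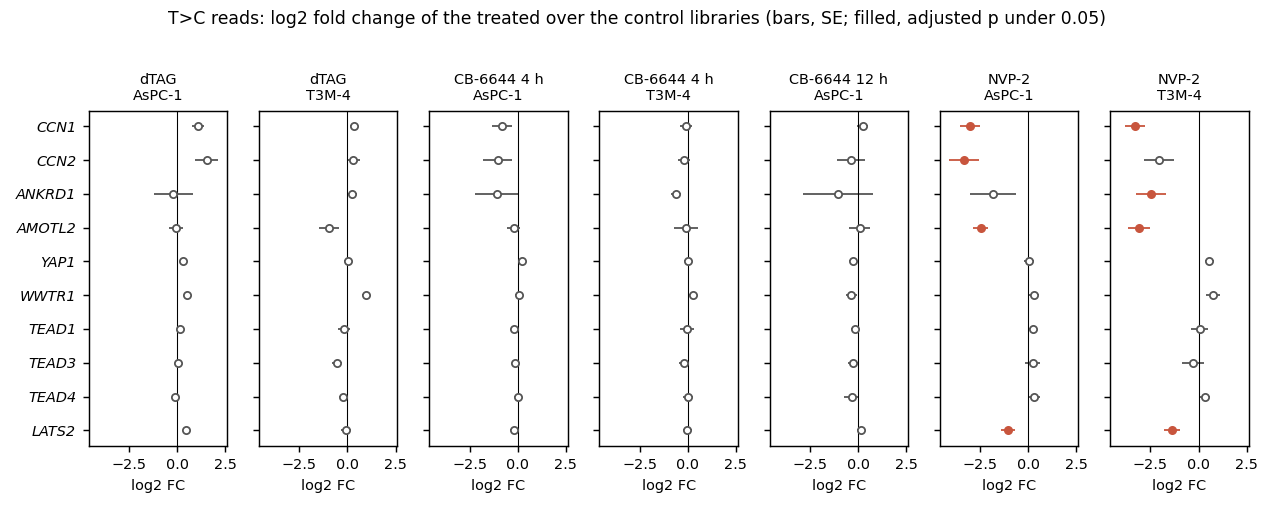
Log2 fold change of T>C reads (horizontal axis) of the 10 genes in the 7 comparisons of treated with control libraries, without pairing; bars are standard errors and filled points have an adjusted p under 0.05. Filled points occur under NVP-2 alone, 4 in each line, and all lie below 0.

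Between the lines, 4 of 10 members were called in all reads of DMSO libraries at 4 h, where 55.7% of all genes were (30.5% higher in T3M-4 and 25.2% lower), so members were not called more often than other genes. CCN2 was 17.7, 16.3, 2.65, 30.9 and 28.0 CPM in AsPC-1 and 0.96 to 1.299 CPM in T3M-4, a log2 difference of −4.09 ± 0.60 (T3M-4 minus AsPC-1, adjusted p = 0.000206 by edgeR). TEAD1 was lower in T3M-4 (−0.98 ± 0.14, 0.00015), at 32.1 to 39.9 CPM against 62.8 to 81.6 CPM. TEAD4 (1.31 ± 0.15, 4.1e-05) was higher, at 32.1 to 36.3 CPM against 10.6 to 15.9 CPM, and AMOTL2 (1.32 ± 0.45, 0.0269) was higher with overlapping groups and lost its call in 5 of 9 fits without 1 library. CCN2, TEAD1 and TEAD4 did not overlap between the lines, though overlap was not counted over all genes. Several of these values depended on the AsPC-1 set. Against NEG libraries of set B alone T3M-4 was higher by 7.58 ± 0.43 for ANKRD1 and 0.74 ± 0.28 for CCN1, while CCN2 was at −1.22 ± 0.49 and no longer called (adjusted p = 0.0525 by edgeR), and against those of set C AMOTL2 lost its call (0.057). In T>C reads TEAD1 differed by −0.34 ± 0.24 and was not called (0.263). TEAD4 T>C counts in AsPC-1 are all multiples of 3 and TEAD3 T>C counts in T3M-4 all multiples of 2, while the all-read counts of both have no common divisor above 1. The reason was not tested, and the errors of these T>C counts may be those of fewer reads.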

How the data were processed

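The deposited tables hold T>C read counts and all-read counts per gene. Per the study's methods the authors mapped reads to hg38 3′ UTR exons of GENCODE 44 with slamdunk and summed the counts over a gene's exons. Of the columns of values, 1 (a repeat of a dTAG column among the AsPC-1 all reads) and 18 unnamed empty columns were not used. Members and gene lists were chosen with earlier results of these data known, and the genes named beyond the members are those called from the lists, KLF5, the line markers and the genes most like CCN1 and CCN2; DCLK1 was named after its values were seen. T>C and all-read counts were tested with edgeR 4.0.16 (filterByExpr, TMM, quasi-likelihood; R 4.3.3), each treatment against its own control libraries, with Benjamini-Hochberg adjustment over all genes tested and a threshold of 0.05. DESeq2 1.42.0, other scalings, blocks and left-out libraries were alternatives. The labelled share was tested with limma 3.58.1 on log2((T>C reads + 0.5)/(other reads + 0.5)) for genes with at least 50 reads on average. CPM in the text share 1 TMM scale per kind of read over all libraries, while fold changes come from each comparison's own fit. The edgeR, DESeq2 and share steps were tested on simulated data with 200 changed genes. Replicate numbers were taken to pair libraries for dTAG in both lines, CB-6644 in T3M-4 and CB-6644 at 12 h. There every pair's deviations correlated above 0.1. Libraries that share a set or a batch can do so without being pairs, so this does not show pairing. In T>C reads 5 of 10 (AsPC-1) and 3 of 4 (T3M-4) dTAG libraries correlated best with their own number. With CB-6644 1 of 4 did in T3M-4 and 2 of 4 at 12 h. No 2 libraries of a group had equal counts, and the closest differed by 11.2 in chi-square per degree of freedom. Alternatives by library set were chosen after seeing the data. Pairs and overlap of groups were counted for the members and KLF5 alone, not over all genes. Genes like CCN1 and CCN2 were ranked by Pearson's r over the 12 group means of log2 T>C CPM, for genes with a mean of at least 5 CPM.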

Additional observations from a re-analysis of the deposited data

Results flagged for a closer look

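Of 360 groups of libraries, 10 held a value far from the others of its group by Dixon's criterion, which chance alone flags in about 1 group in 20. The ANKRD1 labelled share was 18.2% in CB-6644 replicate 1.3 of AsPC-1 at 4 h, against 33.3% to 34.5% in the others, and 0% in NEG replicate 3.3 of AsPC-1, against 25% to 50%; both libraries are of set B, where ANKRD1 has few reads. ANKRD1 all reads were 8.79 CPM in CB-6644 replicate 2.1 of T3M-4 (others 3.69 to 4.46). TEAD1 all reads were 70.2 CPM in CB-6644 replicate 2 of AsPC-1 at 12 h (others 49.0 to 51.7), and its labelled share was 42.6% in CB-6644 replicate 2.1 of T3M-4 (others 30.5% to 32.6%). TEAD3 T>C reads were 32.4 CPM in dTAG replicate 3.3 of AsPC-1 (others 15.8 to 21.0). TEAD4 all reads were 22.7 CPM in NEG replicate 3.3 of AsPC-1 (others 13.0 to 16.2), and its labelled share was 6.67% in CB-6644 replicate 2 of AsPC-1 at 12 h (others 9.39% to 9.89%). The LATS2 labelled share was 51.6% in DMSO replicate 2 of AsPC-1 at 12 h (others 43.2% to 44.2%), and LATS2 all reads were 5.11 CPM in NVP-2 replicate 1.1 of AsPC-1 (others 2.45 to 2.71).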

How the results depend on the processing

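The counts below are members called, of 10. For dTAG in AsPC-1, T>C reads gave 0; DESeq2 gave 2, the replicate block 4, a block of library set 2, set and experiment together 4, and set A alone 1. All reads gave 0, then 4 with the replicate block, 4 with set and experiment, 2 with set, and 1 with set A or set C alone. The labelled share gave 5, and 0 to 6 when 1 experiment was left out. For dTAG in T3M-4, T>C reads gave 0, then 1 with DESeq2, 2 with the replicate block and 2 with batch 2 alone; all reads gave 0, then 1 with the replicate block. For NVP-2, T>C reads gave 4 in both lines and 10 scaled by all reads in both; AsPC-1 gave 2 against batch 2 DMSO libraries at 12 h. Leaving out 1 library gave 3 to 4 in AsPC-1 and 2 to 4 in T3M-4 for T>C reads, and 2 to 4 and 2 to 3 for all reads. The replicate block took the LATS2 call under NVP-2 in T>C reads of both lines (adjusted p 0.0924 in AsPC-1 and 0.0516 in T3M-4 by edgeR). There the numbers were not taken to pair libraries.

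Scaled by all reads, members that were above 0 with NVP-2 went below it: in AsPC-1 YAP1 −3.18, WWTR1 −2.94, TEAD1 −2.97, TEAD3 −3.04 and TEAD4 −2.94, and in T3M-4 YAP1 −2.48, WWTR1 −2.09, TEAD1 −2.69 and TEAD4 −2.68, since this scaling keeps the loss of new RNA in all genes. TEAD1 in T3M-4 was −1.26 in batch 2 alone, and the line difference was 0.74 for CCN1 and 7.58 for ANKRD1 against set B; the cause was not tested. Over the alternatives, the count of all genes called ranged widely. With dTAG, T>C reads called 281 genes in AsPC-1 (range 0 to 941) and 112 in T3M-4 (22 to 348), all reads 111 (3 to 767) and 3 (0 to 74), and the labelled share 4791 (258 to 4972) and 34 (11 to 36). With NVP-2, T>C reads called 3506 (2391 to 10829) and 3263 (2168 to 10680), and all reads 1667 (837 to 2749) and 807 (492 to 2626). The share with CB-6644 at 4 h in AsPC-1 called 233 (2 to 319), and the line difference 6 (1 to 81) for dTAG and 112 (50 to 599) for NVP-2. In all, 299 counts of members under an alternative stayed within 1.5 times the reported one and 35 did not. The 299 include counts of 0 set against 0, as in every CB-6644 fit and every line difference of a treatment, so they do not show that calls are stable.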

Other observations

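Over the 12 group means of T>C reads, the genes most like CCN1 among 9834 were USP46 and RHEB (Pearson's r 0.984 each) and SBNO1-AS1 (0.975), and those most like CCN2 were ANKRD42 and PHLDB2 (0.956 each). Among the members, LATS2 (0.916) and ANKRD1 (0.906) were most like CCN1, while TEAD1 had −0.0104 and YAP1 −0.188. The 12 points share libraries' depth and include both NVP-2 groups, so these values are descriptions. Over the 10 groups without NVP-2 the order changed: LRP6 and RHEB (0.941 each), OSBP (0.914) and JUN (0.902) were most like CCN1, and RPGRIP1L (0.921) and MRTFA (0.906) most like CCN2.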
